A study of Mus musculus with 8 samples.

Results

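The genes described are 10 protein-coding genes of the mouse mitochondrial genome: mt-Nd1, mt-Nd2, mt-Nd4, mt-Nd5, mt-Nd6, mt-Co1, mt-Co2, mt-Co3, mt-Atp6 and mt-Cytb. They were found in the table by matching Ensembl identifiers without their version to GENCODE M21, and they are 10 of its 34866 genes. The set was chosen because mitochondrial genes took a lower share of the counts in the knockouts, so every genotype difference of these 10 genes is a description. Counts of them past a threshold are given only beside the share of all genes past it, and no such count is a test of the set. The annotation lists 13 protein-coding genes on the mitochondrial chromosome and all 13 are in the table. The other 3, mt-Atp8, mt-Nd3 and mt-Nd4l, are given beside the 10 for comparison.

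RNA came from epididymal white adipose tissue, a visceral fat depot, of male mice. The 4 control libraries carry a floxed aromatase gene (Aromatase flox/flox), and the 4 knockout libraries carry aP2-Cre in addition (aP2-Cre;Aromatase flox/flox), so the floxed alleles are shared by both groups. aP2-Cre expresses Cre recombinase from the promoter of Fabp4, a gene of adipocytes that macrophages can also express. Mice with aP2-Cre alone were not analysed here, the ages are not given in the labels, and nothing states that the libraries of a group came from separate animals, so their spread may be technical in part.

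Mitochondria keep a small circular genome whose protein-coding genes all encode subunits of the respiratory chain and ATP synthase. Complex I takes electrons from NADH, complex III passes them to cytochrome c, complex IV hands them to oxygen, and complex V uses the resulting proton gradient to make ATP. The other subunits of these complexes are encoded in the nucleus. Both strands of the mitochondrial genome are transcribed as long precursors that are cut mainly at the transfer RNAs between the genes. Most of the messenger RNAs released, but not all, are given short poly(A) tails. In white fat the chain serves the making and burning of fatty acids as well as the supply of ATP.

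The pairs of sequences below show why some of these genes cannot be counted cleanly by their ends. The last set shows another trait of the gene ends, stop codons that are encoded only in part. The libraries were primed with oligo-dT and so sample RNA mainly near its poly(A) tail. All sequences are from the GENCODE M21 transcripts (GRCm38), read 5′ to 3′ on the strand of the gene. The first pair shows where the nuclear pseudogene Gm29216 begins to match mt-Co1, at base 1054 of the 1545 of mt-Co1, with the 6 mismatched bases in capitals.
mt-Co1: ggTCtAAcCggaAttgttttatccaactca
Gm29216: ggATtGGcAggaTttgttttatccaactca
The second pair shows that both end alike, with the stop codon in capitals.
mt-Co1: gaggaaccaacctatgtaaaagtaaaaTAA
Gm29216: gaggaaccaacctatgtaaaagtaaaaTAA
The third pair is the facing ends of mt-Nd5 and mt-Nd6, which lie on opposite strands, with the 14 bases that they share in capitals.
mt-Nd5: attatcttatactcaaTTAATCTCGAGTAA
mt-Nd6: tttattattatcgagaTTACTCGAGATTAA
The last set holds 3 genes whose stop codon is encoded only by its first base, in capitals, so that the poly(A) tail itself completes it.
mt-Co3: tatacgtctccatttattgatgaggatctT
mt-Nd4: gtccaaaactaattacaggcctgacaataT
mt-Cytb: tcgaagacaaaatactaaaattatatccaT

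From base 1067 of mt-Co1 onwards the 2 transcripts are identical over 479 bases, which run to the last base of both. Gm29216 is annotated as an unprocessed pseudogene at chr1:24615706-24616197 on the minus strand, and it belongs to a row of 7 nuclear copies of mitochondrial genes between 24611535 and 24616197. The longest run of A within any of the 13 mitochondrial genes was 8 bases, in mt-Nd2. Each of the 10 genes is annotated as 1 exon.

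The libraries held 1538427 to 3053565 estimated counts. Of these, 170572 to 320490 lay on the 10 genes. The targeted gene Cyp19a1 could not check the genotypes, with 1 to 5.02 counts in controls and 0 to 4 in knockouts. Its level was 1.00 ± 0.841 CPM (the usual unit of counts relative to library size, here with the library size scaled by TMM factors) in controls and 0.736 ± 0.674 CPM in knockouts (SD, n = 4), and a two-sided exact permutation test gave p = 0.629, where 0.0286 is the smallest it can give. All 12 adipocyte markers were detected, Adipoq at 2110 to 3814 CPM, and 6 of the 8 epididymis and male tract markers were at 0 in all 8 libraries.

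The 10 genes took 10.5%, 10.5%, 12.2% and 11.1% of the counts in control replicates 1 to 4. They took 9.89%, 8.98%, 9.07% and 8.54% in knockout replicates 1 to 4. The means were 11.1% ± 0.800 and 9.12% ± 0.564 (SD, n = 4), and no knockout library reached the lowest control library. Control replicate 3 was the highest library of all, and knockout replicate 1 the highest of its group. Leaving out each library in turn, the difference ranged from -2.21 to -1.58 percentage points. In whole tissue, fewer cells of a type that is rich in mitochondria and less mitochondrial RNA per cell cannot be told apart.

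**Figure D1:**
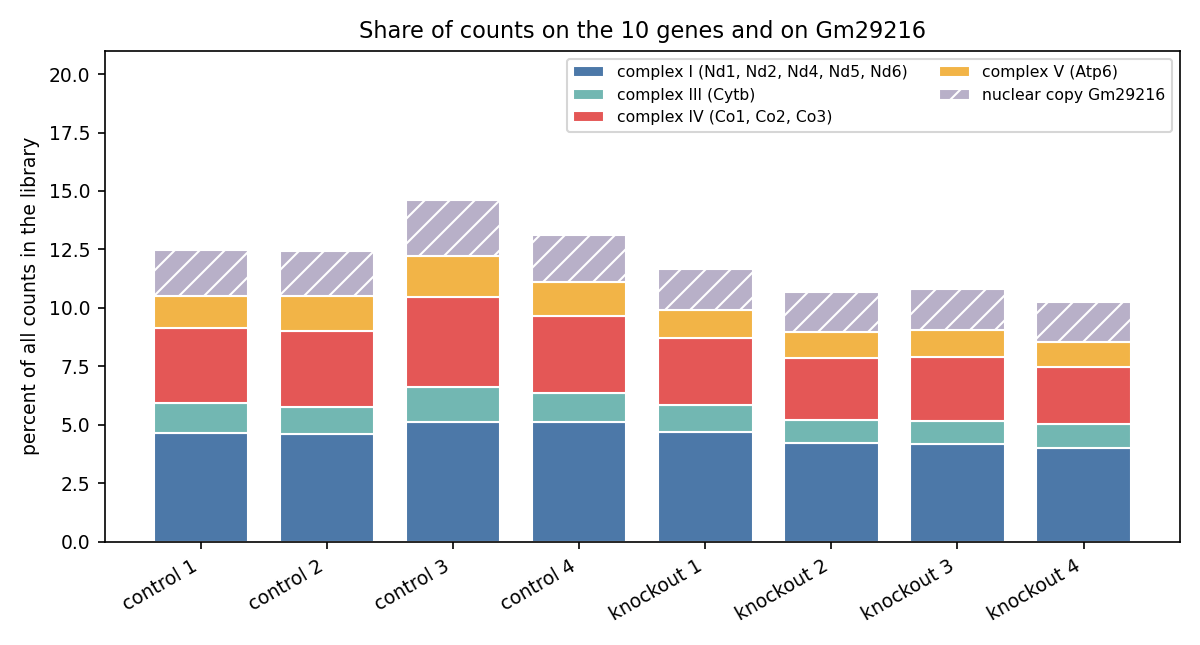
Percent of all counts in each library (vertical axis) that lay on the mitochondrial genes, stacked by respiratory complex, with the nuclear pseudogene Gm29216 hatched on top. The 4 control bars without the hatched part end between 10.5% and 12.2%, and the 4 knockout bars between 8.54% and 9.89%.

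Of the 10 genes 5 encode subunits of complex I, all in the core of its membrane arm. Their summed level was 50263 ± 3546 CPM in controls and 42126 ± 4092 CPM in knockouts (SD, n = 4), and the groups overlapped because knockout replicate 1 stood at 48235 CPM. The 3 genes of complex IV summed to 35237 ± 4158 and 26249 ± 1919 CPM (SD, n = 4) without overlap. On the log2 scale the ratio of these means was -0.25 for complex I and -0.42 for complex IV. Whether these differ from each other was not tested.

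Among the complex I genes, mt-Nd1 (chromosome M, 2751 to 3707, plus strand) stood at 9388, 9440, 10941 and 10431 CPM in control replicates 1 to 4 and at 8081, 7502, 7553 and 7577 CPM in knockout replicates 1 to 4. The groups did not overlap, and 3 of the knockout libraries lay close together with replicate 1 above them. The log2 fold change, knockout minus control, was -0.39 with a standard error of 0.11.

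For mt-Nd2 (chromosome M, 3914 to 4951, plus strand) the control libraries had 8229, 8352, 10464 and 8578 CPM and the knockout libraries 7754, 6777, 6647 and 7496 CPM, in the same order. Again the groups did not overlap, with control replicate 3 well above the rest. The log2 fold change was -0.31 (standard error 0.121).

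mt-Nd4 (chromosome M, 10167 to 11544, plus strand) was among the most abundant, at 16146, 14880, 18022 and 15745 CPM in controls and 16112, 13008, 13077 and 12796 CPM in knockouts. Knockout replicate 1 lay inside the control range, and the other 3 knockout libraries lay below it. The log2 fold change was -0.24 (standard error 0.122).

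mt-Nd5 (chromosome M, 11742 to 13565, plus strand) overlapped widely between the genotypes. It was at 6764, 6554, 6990.3 and 7835 CPM in controls and 8581.5, 6841, 6147 and 5747 CPM in knockouts, so that knockout libraries were both the highest and the lowest of the 8. The log2 fold change of -0.04 (standard error 0.137) turned to 0.01 without control replicate 4, 0.004 without knockout replicate 3 and 0.03 without knockout replicate 4. It was 0.02 on library totals without scaling factors, where the median of all genes tested was 0.068, beside -0.001 with the factors.

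mt-Nd6 (chromosome M, 13552 to 14070) is the one protein gene on the minus strand. It had 8861, 7171, 8536 and 7728 CPM in controls and 7706, 6494, 6242 and 6364 CPM in knockouts. Knockout replicate 1 lay inside the control range and the other 3 below it, with a log2 fold change of -0.27 (standard error 0.121). Use of strand in the counting is not given in the sources used here, and the messenger RNA of mt-Nd5 is known to run on past its coding end, antisense to mt-Nd6, so the counts on mt-Nd6 cannot be divided between the 2 strands. Each library had 0.986 to 1.31 counts on mt-Nd6 per count on mt-Nd5 in controls and 0.898 to 1.11 in knockouts.

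Complex III has a single mitochondrial gene, mt-Cytb (chromosome M, 14145 to 15288, plus strand), the cytochrome b that holds the b-type haems of the complex. Its levels were 13570, 11929, 15799 and 12216 CPM in controls and 11840, 9798, 9680 and 10356 CPM in knockouts. The highest knockout library came just under the lowest control library, and the log2 fold change was -0.36 (standard error 0.127).

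Within complex IV, mt-Co2 (chromosome M, 7013 to 7696, plus strand), the subunit that takes electrons from cytochrome c, showed the lowest fold change of the 10. It stood at 15924, 14777, 18786 and 14061 CPM in controls and 12253, 10994, 11051 and 10447 CPM in knockouts, without overlap. The log2 fold change of -0.51 (standard error 0.124) is 0.704 of the control level.

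mt-Co3 (chromosome M, 8607 to 9390, plus strand), a core subunit without metal centres, had 15776, 15428, 19888 and 16199 CPM in controls and 13671, 12016, 12521 and 12025 CPM in knockouts. The groups did not overlap, and the log2 fold change was -0.42 (standard error 0.121).

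mt-Co1 (chromosome M, 5328 to 6872, plus strand) encodes the catalytic subunit of complex IV, yet its own row was the lowest of the 10. It was listed at 2367, 2453, 2728 and 2562 CPM in controls and 3060, 2372, 2478 and 2109 CPM in knockouts. The log2 fold change of that row was -0.01 (standard error 0.128), and it turned to 0.03 without control replicate 3, 0.01 without knockout replicate 2 and 0.06 without knockout replicate 4. It was 0.05 on library totals without scaling factors, where the median of all genes tested was 0.068.

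The nuclear pseudogene Gm29216 held most of what the pair received. It was listed at 20629, 19866, 25815 and 19830 CPM in controls and 18120.5, 16326, 16724 and 17162 CPM in knockouts, which is 85.5% to 90.4% of the joint counts of Gm29216 and mt-Co1. That put a pseudogene above each of the 10 mitochondrial genes in every library. Reads from the 479 shared bases fit both transcripts equally, so the division between them is uncertain.

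With both rows added, mt-Co1 was at 22996, 22319, 28543 and 22392 CPM in controls and 21181, 18698, 19202 and 19271 CPM in knockouts. In this sum the groups did not overlap and the log2 fold change was -0.30 (standard error 0.121), where the mt-Co1 row alone gave -0.01. The 10 genes with their nuclear copies added took 13.2% ± 1.02 of the counts in controls and 10.8% ± 0.591 in knockouts (SD, n = 4).

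The other nuclear copies received few counts. Gm10222, Gm10925 and Gm28439, which match mt-Nd4l, mt-Atp6 and mt-Nd4 without a mismatch, were listed at 0 in all 8 libraries, and Gm28437, which matches mt-Co3, at 0 to 1e-06. Gm28661 matches 681 of the 684 bases of mt-Co2 and was listed at 0.00416 to 92.8 counts, at most 0.339% of the pair. Its level was 3.33 ± 6.48 CPM in controls and 26.9 ± 11.6 CPM in knockouts (SD, n = 4). Gm28438, which matches mt-Nd3, took 0.489% to 6.19% of that pair.

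Complex V is represented by mt-Atp6 (chromosome M, 7927 to 8607, plus strand), the subunit a of its proton channel. Its levels were 14949, 15133, 18500 and 13995 CPM in controls and 12246, 10991, 11188 and 10551 CPM in knockouts. The groups did not overlap, and the log2 fold change was -0.48 (standard error 0.122).

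**Figure D2:**
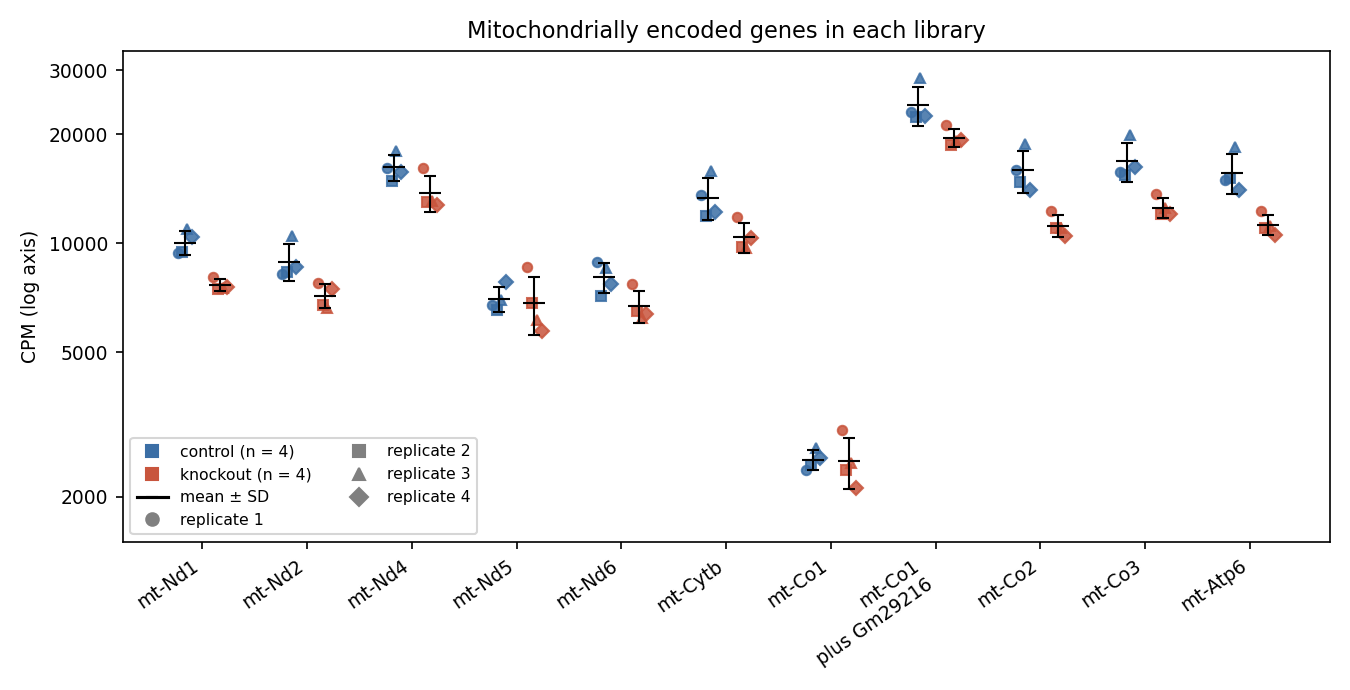
CPM of each gene on a log axis, with 1 point per library (shape: replicate number), and the mean ± SD of 4 control (blue) and 4 knockout (red) libraries. In mt-Nd1, mt-Nd2, mt-Cytb, mt-Co2, mt-Co3 and mt-Atp6 every knockout library lies below every control library, as in 1.72% of all genes tested. The groups overlap in mt-Nd4, mt-Nd5, mt-Nd6 and mt-Co1, and separate in mt-Co1 with the counts of Gm29216.

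All 10 genes had a log2 fold change below 0, as did 50.3% of the 12480 genes tested. Their median was -0.34, beside -0.001 for all genes tested. In 6 of the 10, mt-Nd1, mt-Nd2, mt-Co2, mt-Co3, mt-Atp6 and mt-Cytb, every knockout library lay below every control library, which held for 1.72% of the genes tested, and the reverse, every knockout library above, held for 0 of the 10 and 2.52% of the genes tested. In edgeR's quasi-likelihood fit across all genes 0 of the 10 passed an adjusted p of 0.05, where 0.168% of all genes passed and 0.0481% passed in the lower direction. At an unadjusted p of 0.05, 7 of the 10 were lower and 0 higher, against 2.87% and 3.52% of all genes. DESeq2 passed 4 of the 10, limma-voom 0 and edgeR without the low-count filter 1, where 0.355%, 0.192% and 0.253% of all genes with an adjusted p passed. Since the set was chosen on this difference, nothing is read from these counts. Abundant nuclear genes are given beside them, also as a description, though most of the 10 genes lay far above the limit of 1000 CPM used here. Among the 59 nuclear genes with a mean of 1000 CPM or more, the median was -0.04 and 62.7% were below 0. In 5.08% of the 59 every knockout library lay below every control library.

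**Figure D3:**
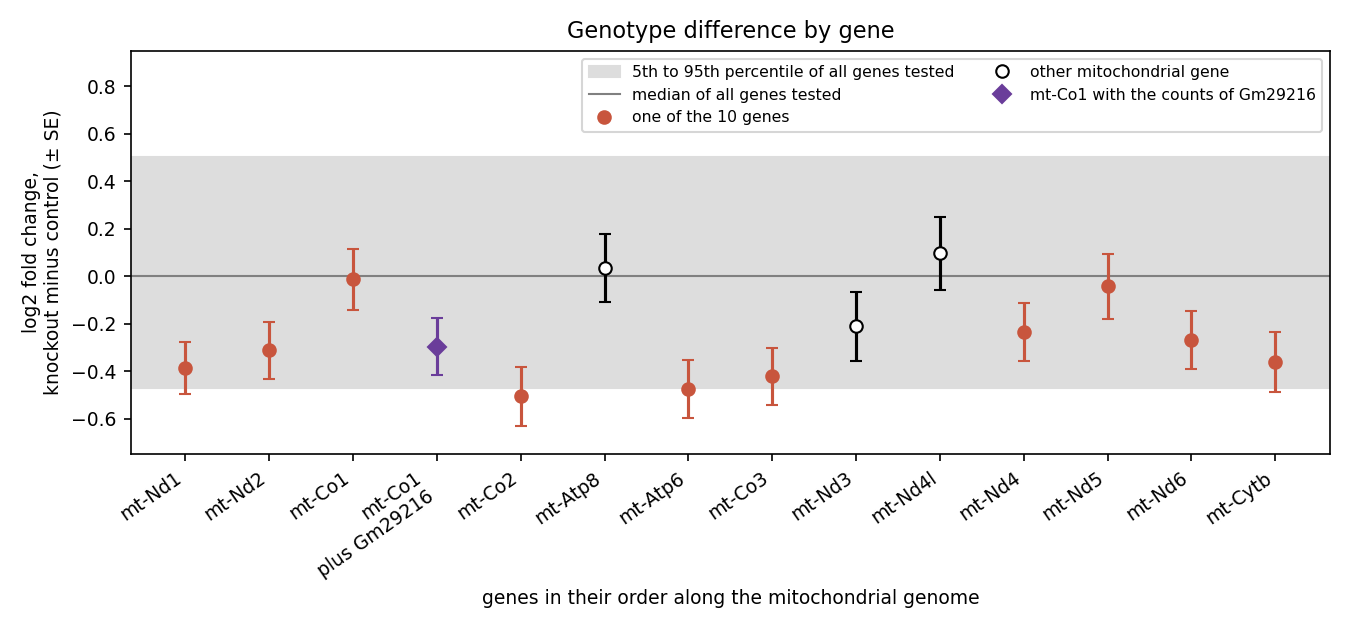
Log2 fold change, knockout minus control, with its standard error, for the mitochondrial genes in their order along the genome. The grey band holds the middle 90% of all genes tested (-0.47 to 0.50); mt-Co2 and mt-Atp6 lie at its lower edge, while mt-Co1 and mt-Nd5 lie at the median line unless the counts of Gm29216 are added to mt-Co1.

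The 3 further genes of the mitochondrial genome had lower counts than each of the 10 in every library. mt-Atp8, which overlaps the start of mt-Atp6 by 43 bases, was at 242 ± 12.1 CPM in controls and 248 ± 57.9 CPM in knockouts (SD, n = 4). mt-Nd4l, which overlaps the start of mt-Nd4 by 7 bases, was at 882 ± 118 and 942 ± 202 CPM (SD, n = 4). Both are the upstream reading frame of a messenger RNA that is known to carry a pair of frames, so a read near the poly(A) tail falls on the downstream gene. The third, mt-Nd3, was at 912 ± 122 and 788 ± 148 CPM (SD, n = 4). The log2 fold changes of the 3 were 0.03, 0.10 and -0.21 (standard errors 0.143, 0.153 and 0.145), and those of mt-Atp8 and mt-Nd4l turned to -0.14 and -0.05 without knockout replicate 1.

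Ratios within a library do not depend on how libraries are scaled to each other. Those given here were chosen after the values had been seen and come from the contrast that chose the genes, so none was tested. Per count on mt-Atp8 there were 65.5, 63.8, 74.6 and 54.7 counts on mt-Atp6 in the control libraries. In the knockout libraries there were 36.8, 54.1, 48.6 and 46.6, all below the lowest control. For mt-Nd4 over mt-Nd4l the ranges were 15.3 to 21.2 in controls and 13.2 to 17.6 in knockouts, which overlapped.

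The ratio of mt-Co2 to mt-Nd5 was 2.35, 2.25, 2.69 and 1.79 in controls and 1.43, 1.61, 1.80 and 1.82 in knockouts. Control replicate 4, the smallest library, was the one control library that lay within the knockout range. The ratio of mt-Co2 to mt-Atp6, which lie next to each other apart from mt-Atp8, stayed between 0.977 and 1.07 in all 8 libraries. Gm29216 had 7.74 to 9.46 counts per count on mt-Co1 in controls and 5.92 to 8.14 in knockouts. mt-Co2 per count on Gm29216 was 0.709 to 0.772 and 0.609 to 0.676, without overlap.

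**Figure D4:**
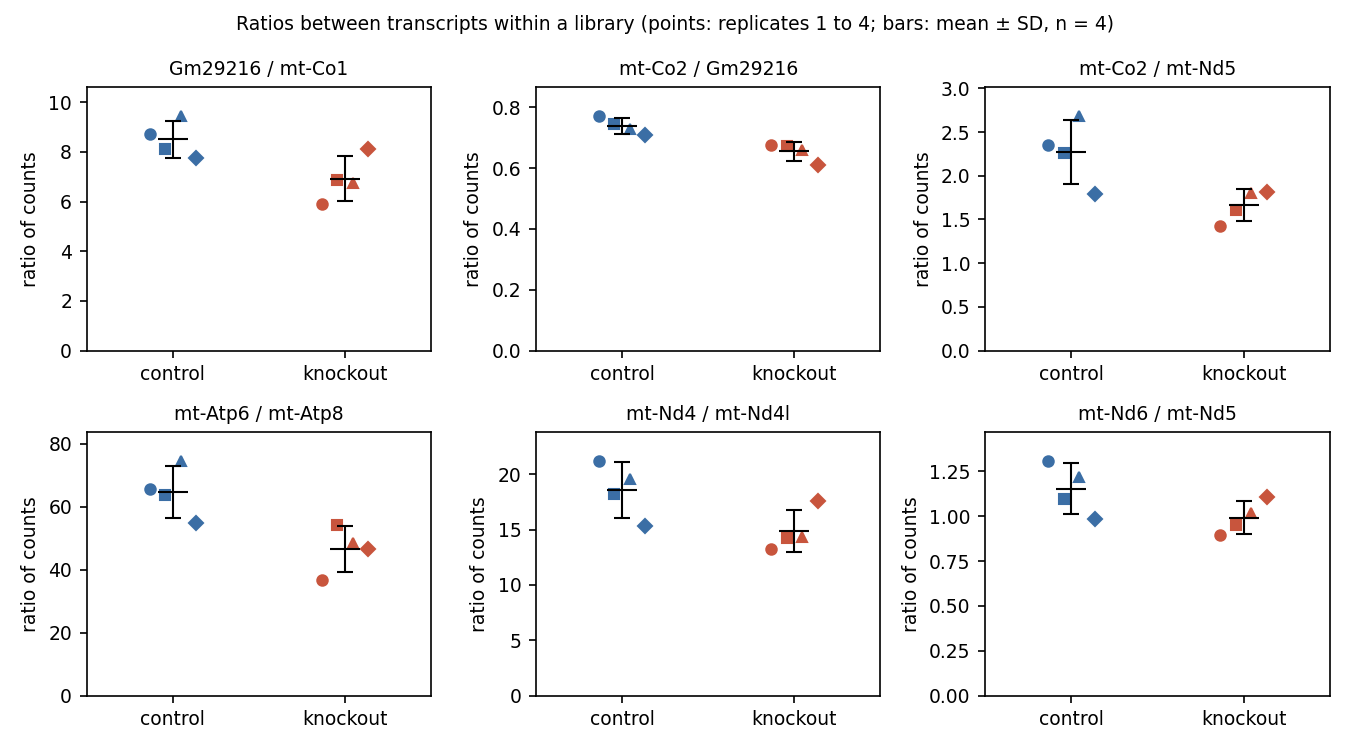
Ratio of estimated counts between pairs of transcripts within each library (vertical axes start at 0), with 4 control (blue) and 4 knockout (red) libraries and the mean ± SD. The ratio of mt-Atp6 to mt-Atp8 spans 54.7 to 74.6 in controls and 36.8 to 54.1 in knockouts; the groups also separate for mt-Co2 over Gm29216, and overlap in the other 4 panels.

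Expressed as shares of the joint counts of the 10 genes and Gm29216, mt-Co2 took 11.7% ± 0.531 in controls and 10.4% ± 0.268 in knockouts (SD, n = 4). mt-Atp6 took 11.5% ± 0.536 and 10.5% ± 0.284 (SD, n = 4). For mt-Nd4 the shares were 11.9% ± 0.322 and 12.8% ± 0.463, and for mt-Co1 1.86% ± 0.118 and 2.33% ± 0.212 (SD, n = 4). These were the 4 genes whose share did not overlap between the genotypes, lower in the knockouts for the first pair and higher for the second. Such shares are parts of a fixed whole, so a lower share of some genes raises that of others. The share of mt-Co1 also rests on its uncertain division from Gm29216. No share over all genes stands beside this count, and nothing is read from it. The shares of Gm29216 were 15.8% ± 0.50 and 15.98% ± 0.65 (SD, n = 4) and overlapped.

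Levels of different genes were compared as CPM per kilobase of the annotated gene, a scale that fits a 3′-end method only loosely. In the control libraries mt-Co2 (23226 ± 3040 CPM per kilobase), mt-Atp6 (22972 ± 2890) and mt-Co3 (21458 ± 2638) came first, with overlapping ranges. After a gap came mt-Nd6 (15557 ± 1479) and mt-Co1 with Gm29216 (15574.5 ± 1943), which overlapped each other. The places of mt-Nd6 and mt-Nd5 in this order are uncertain, since counts on mt-Nd6 may come in part from mt-Nd5 RNA. mt-Nd4 (11755 ± 962), mt-Cytb (11695 ± 1543), mt-Nd1 (10501 ± 798) and mt-Nd2 (8580 ± 1011) followed, each overlapping its neighbour. mt-Nd5 (3857 ± 308) lay clear of all these, and the mt-Co1 row alone (1636 ± 101) was lowest of the 10 (all SD, n = 4).

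In the knockout libraries the same 3 genes came first, at 16511 ± 1056 CPM per kilobase for mt-Atp6, 16354 ± 1113 for mt-Co2 and 16018 ± 993 for mt-Co3 (SD, n = 4). The order below them was the same except that mt-Nd6 (12913 ± 1305) stood just above mt-Co1 with Gm29216 (12678 ± 707). The same limit holds here for mt-Nd6 and mt-Nd5.

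After each group's mean had been removed, the 10 genes still varied together. Over their 45 pairs the median Pearson r of log2 CPM across the 8 libraries was 0.72, with a range of 0.26 to 0.97. The libraries share their scaling factor across genes. Pairs of other genes were not examined, so this is not read as a trait of the 10 genes. mt-Nd5 followed the others least, with a median r of 0.40, and mt-Co3 most, at 0.87. Gm29216 had a median r of 0.83 with the 10 genes.

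Of 10004 other genes with a mean of at least 10 CPM, the 5 with log2 CPM most like the mean of the 10 genes over the 8 libraries were Nubp2 (r = 0.95), Timm22 (0.95), Gm29216 (0.94), Pgrmc1 (0.94) and Krcc1 (0.93). With genotype means removed their r was 0.86, 0.91, 0.83, 0.82 and 0.81. Timm22 encodes a channel that inserts carrier proteins into the mitochondrial inner membrane, and Nubp2 a factor for cytosolic iron-sulphur clusters. The 5 most opposed were Anxa3 (-0.94), Rap2c (-0.94), Wnk1 (-0.93), Ubash3b (-0.93) and Creb3l2 (-0.93). These are the ends of a ranking of all 10004 genes over 8 libraries, and no p is given.

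The nuclear genes of the same complexes were examined as a list chosen with earlier results of these data known. In edgeR 0 of 79 had an adjusted p under 0.05, while 7 were lower and 0 higher at an unadjusted p of 0.05 (2.87% and 3.52% of all genes tested). A log2 fold change below 0 was found for 73 of the 79, as for 50.3% of all genes tested. Their median was -0.15, beside -0.34 for the 10 mitochondrial genes and -0.001 for all genes tested. By complex the medians were -0.14 for I (36 genes), -0.12 for II (4 genes), -0.24 for III with cytochrome c (10 genes), -0.07 for IV (12 genes) and -0.17 for V (17 genes). Complex II, which has no mitochondrially encoded subunit, lay among the others. On library totals without scaling factors the median of all genes tested was 0.068, that of complex IV turned to 0.008 and those of the other complexes stayed below 0.

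The largest decreases in their lists, none past the threshold, were as follows. Ndufa8, an accessory subunit of complex I, was at 135 ± 13.2 CPM in controls and 103 ± 8.37 CPM in knockouts (SD, n = 4; edgeR log2 fold change -0.38 with adjusted p = 0.45). Sdhd, a membrane anchor of complex II, was at 87.7 ± 22.1 and 61.9 ± 3.31 CPM (SD, n = 4; edgeR log2 fold change -0.51 with adjusted p = 0.498). Cox5a, a subunit of complex IV, was at 234 ± 7.97 and 195 ± 22.5 CPM (SD, n = 4; edgeR log2 fold change -0.26 with adjusted p = 0.713). In complex V the lowest was Atp5g2, one of the genes that encode the c subunit, at 56.4 ± 16.7 and 34.9 ± 13.6 CPM (SD, n = 4; edgeR log2 fold change -0.70 with adjusted p = 0.762). The more abundant genes of that subunit were Atp5g1, at 113.9 ± 6.44 and 113.8 ± 20.5 CPM, and Atp5g3, at 740.2 ± 23.5 and 643.5 ± 55.5 CPM (SD, n = 4).

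Genes that copy, transcribe and process mitochondrial DNA and RNA had medians near that of all genes. In edgeR 0 of 14 tested for replication and maintenance, 0 of 8 for transcription, 0 of 22 for RNA processing and decay and 0 of 12 for translation passed an adjusted p of 0.05. At an unadjusted p of 0.05 there were 0, 0, 2 and 0, both of the 2 lower (2.87% of all genes tested were lower and 3.52% higher). Their medians were -0.06, -0.02, 0.03 and -0.06, and 0.01, 0.04, 0.10 and 0.004 without scaling factors. Polrmt, the mitochondrial RNA polymerase, was at 12.6 ± 3.35 CPM in controls and 8.57 ± 1.75 CPM in knockouts (SD, n = 4; edgeR log2 fold change -0.58 with adjusted p = 0.816). Tfb2m, the factor that opens the promoter with it, was at 41.0 ± 6.17 and 44.9 ± 4.70 CPM (SD, n = 4; edgeR log2 fold change 0.12 with adjusted p = 0.946). Ptcd1, which binds mitochondrial RNA, was at 14.1 ± 2.06 and 7.82 ± 1.27 CPM without overlap (SD, n = 4; edgeR log2 fold change -0.84 with adjusted p = 0.498). Slirp, a partner of the RNA-stabilising protein Lrpprc, was at 21.6 ± 1.53 and 24.8 ± 3.67 CPM (SD, n = 4; edgeR log2 fold change 0.21 with adjusted p = 0.924).

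Assembly factors of the complexes had a median of -0.01 over 42 genes and regulators of mitochondrial biogenesis -0.07 over 10. Carriers, pores and matrix proteins that mark mitochondrial mass had -0.11 over 22, of which 20 were below 0, as were 50.3% of all genes tested. Without scaling factors these 3 medians were 0.06, 0.01 and -0.04. None of these genes passed an adjusted p of 0.05 in edgeR. At an unadjusted p of 0.05 there was 1, 0 and 0, the 1 being lower (2.87% of all genes tested were lower and 3.52% higher). Ppargc1a, a coactivator that raises mitochondrial gene expression, was at 19.6 ± 10.8 CPM in controls and 14.5 ± 3.45 CPM in knockouts (SD, n = 4; edgeR log2 fold change -0.40 with adjusted p = 0.922).

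**Figure D5:**
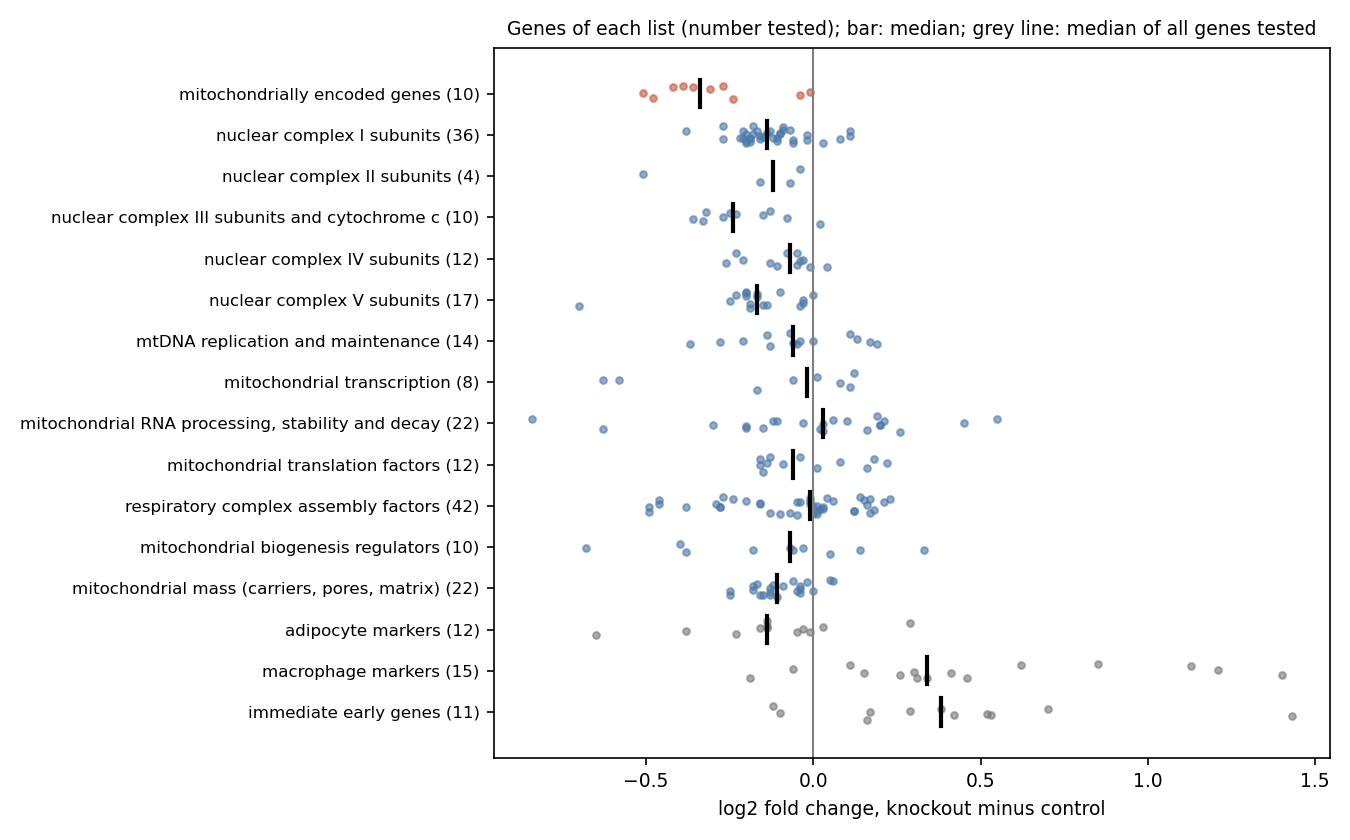
Log2 fold change, knockout minus control, of each tested gene (points) by list, with the number tested and the median as a bar; the grey line is the median of all genes tested. The mitochondrially encoded genes have a median of -0.34, the nuclear complex lists -0.24 to -0.07, and the macrophage markers 0.34.

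Markers of other cells and of tissue handling were read beside the 10 genes. Of 16 macrophage markers 15 were tested and Cd68, Lyz2 and Ctss passed upward in edgeR (0.12% of all genes did). Their summed level over all 16 was 1155 to 1272 CPM in controls and 1674 to 2103 CPM in knockouts, without overlap. The largest part of this sum was Lyz2, at 379 ± 23.3 CPM in controls and 682 ± 86.7 CPM in knockouts (SD, n = 4). Of the 15 tested, 13 had a log2 fold change above 0 and 2 below, Cd163 (-0.19) and Mertk (-0.06). At an unadjusted p of 0.05 in edgeR 9 were higher and 0 lower (3.52% and 2.87% of all genes tested). The 12 adipocyte markers had a median of -0.14, none passed in edgeR (1 had an unadjusted p under 0.05), and their sums overlapped at 70075 to 89174 and 59198 to 84516 CPM. Immediate early genes, which respond to tissue handling, had a median of 0.38 with 0 of 11 past the threshold in edgeR (3 higher at an unadjusted p of 0.05), and sums of 359 to 554 and 517 to 714.5 CPM. The part of these differences in the mitochondrial values was not tested.

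Markers of other cells of high mitochondrial content were at low levels. The brown and beige adipocyte markers summed to 30.8 to 44.0 CPM in controls and 25.3 to 46.1 CPM in knockouts, and Ucp1, which defines brown fat, was at 0 to 0.916 CPM. Skeletal muscle markers summed to 56.4 to 87.9 and 84.1 to 137 CPM. The largest part was Myl1, at 53.5 ± 9.59 CPM in controls and 58.1 ± 5.94 CPM in knockouts (SD, n = 4). Acta1 was at 15.4 ± 4.84 and 27.2 ± 10.9 CPM (SD, n = 4), and neither passed in edgeR. The remaining muscle markers were too low to be tested, with means of at most 2.56 CPM in controls and 6.41 CPM in knockouts. Each muscle marker had the higher mean in knockouts. What such cells contributed to the mitochondrial counts was not tested.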

How the data were processed

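RNA-seq by BRB-seq, a 3′-end method primed with oligo-dT and cut with Tn5 transposase, was done on total RNA with 10 PCR cycles and 51-base insert reads, per the labels' protocols. The table deposited by the authors holds estimated counts for each gene, with totals that differ between libraries, and 59.6% of its values above 0 were whole. Salmon and GRCm38 are named in the submitters' processing notes; the version, annotation, strand setting and whether molecular identifiers were used are not given in the sources used here. Replicates of a group differed by 4.48 to 9.40 in chi-square per degree of freedom, so all 8 were counted as separate samples.

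Identifiers were matched to GENCODE M21 (34582 of 34866 found). Counts were rounded and fitted with edgeR 4.0.16 in R 4.3.3 (robust quasi-likelihood F test, genotype only, TMM factors, filterByExpr, Benjamini-Hochberg threshold 0.05), which kept 12480 genes and all 10 described here. CPM used unrounded counts and TMM-scaled library sizes; correlations used log2(CPM + 0.5). The exact permutation test was run in scipy 1.17.1. Nuclear copies share at least 25 words of 31 bases with a mitochondrial transcript. Where copies were added to a gene, only those sharing most of their own words with it were used, 7 of the 15 found. Alternatives were RLE or no factors, TMM without mitochondrial genes, no filter, DESeq2 1.42.0, limma-voom 3.58.1, the replicate block, added nuclear copies, other denominators and leaving out each library.

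The genes named are all 13 mitochondrial genes, their nuclear copies, Cyp19a1, in each pathway list genes past the threshold and the largest rise and fall among genes of at least 10 CPM (only some of which are printed, a choice made after their values were seen), and the 5 genes most and least like the mean of the set; other names were chosen after their values were seen. The genes and lists were chosen with earlier results of these data known.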

Additional observations from a re-analysis of the deposited data

Results flagged for a closer look

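Of 52 groups of 4 values examined, 4 held a library whose gap to the nearest other exceeded Dixon's critical value for 4 values, where chance gives 2.6. mt-Nd4 was at 16112.4 CPM in knockout replicate 1, against 12796 to 13077 CPM in the other 3 knockout libraries, and mt-Nd1 was at 8080.7 CPM in that library, against 7502 to 7577 CPM. Control replicate 3 had 10463.9 CPM of mt-Nd2, where the remaining controls had 8229 to 8578 CPM, and 25814.9 CPM of Gm29216, where they had 19830 to 20629 CPM. Without knockout replicate 1 the median log2 fold change of the 10 genes was -0.38, and without control replicate 3 it was -0.25, beside -0.34 with all libraries.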

How the results depend on the processing

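The median log2 fold change of the 10 genes, -0.34, was -0.353 to -0.269 under the other settings and -0.382 to -0.254 when 1 library was left out; the difference in their share of counts, -1.96 points, was -2.21 to -1.58 with 1 library left out and -2.55 to -2.07 with other denominators or the nuclear copies added. Of the 561 values of single genes and list medians under alternatives, 6 moved by more than 1 SD between replicates; mt-Co1 with its nuclear copy added (-0.30) is one of them. None of the 10 genes passed the threshold in edgeR, but 1 did without the low-count filter and 4 with DESeq2, counts on the contrast that chose the genes and so no test of them; the cause was not tested. Of 12480 genes 21 passed; 58 of 22958 did without the filter, 53 of 14930 with DESeq2 and 6 with the replicate block, and 4 to 43 when 1 library was left out (12, 4, 10 and 43 without control replicates 1 to 4, 9, 13, 16 and 13 without knockout replicates 1 to 4). None of the nuclear and regulatory genes passed with all libraries, and 0 to 1 did with 1 left out, the 1 being Sdhd without control replicate 4. Deviations of same-numbered libraries correlated at 0.24, -0.06, 0.001 and -0.23, and only number 1 matched itself best. The numbers were therefore not treated as pairs in the main fit, though so few values cannot exclude a pairing. Depth limits the rare transcripts: a gene at 0 could have had up to 3 counts, 0.984 to 1.92 CPM, for counting error only. The settings that leave mitochondrial genes and nuclear copies out of the scaling, and that add the copies in the count over all genes, were chosen after seeing the data.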
